A study of Homo sapiens with 11 samples.

Results

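The genes described here are the human matrix metalloproteases (MMPs), the ADAM and ADAMTS proteases, the ADAMTS-like proteins (ADAMTSL) and the tissue inhibitors of metalloproteases (TIMPs). They were chosen by name: every row whose symbol is MMP, ADAM, ADAMTS, ADAMTSL or TIMP followed by its number was taken. This gave 74 genes of 23434 rows, with 24 MMP, 22 ADAM, 19 ADAMTS, 5 ADAMTSL and 4 TIMP genes. PANC1 is a long-used human line from a pancreatic ductal carcinoma, and the labels call PANC1 LM3 its liver-metastatic generation 3. All cells expressed a short hairpin RNA: a control hairpin in shCTRL (genotype WT) or 1 of 2 hairpins against NPTX1, which encodes the secreted neuronal pentraxin 1, in shNPTX1_3 and shNPTX1_4 (genotype NPTX1 knock down). On day 1, 500000 cells were put into the spleen, the tumours that formed in the liver were taken on day 21, and their RNA was sequenced in 4 shCTRL, 3 shNPTX1_3 and 4 shNPTX1_4 libraries. The host's species, age and strain, the expression vector and the number of animals are not stated in the labels. The labels call the libraries biological replicates without naming animals, so the p-values measure the spread between libraries, which may be partly technical.

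MMPs cut collagens, gelatin and other proteins of the extracellular matrix. Most are secreted as inactive pro-enzymes, while the membrane-type MMPs work at the cell surface. ADAM proteases are membrane proteins, of which ADAM10 and ADAM17 release the outer part of growth factor precursors, receptors and adhesion molecules; ADAM11, ADAM22 and ADAM23 lack a working catalytic site and bind LGI proteins in the nervous system. ADAMTS enzymes are secreted and cut proteoglycans such as aggrecan and versican or trim procollagens, and the ADAMTSL proteins resemble them without a protease domain. TIMPs block the active site of MMPs and of some ADAMs and ADAMTSs, and TIMP2 also takes part, with MMP14, in the activation of pro-MMP2 at the cell surface. In pancreatic carcinoma these proteases are studied for their part in invasion and in remodelling of the stroma.

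The values are normalized read counts, that is, reads per gene divided by a library's size factor, given by the authors as 1 mean per group. The authors' deposited table adds a DESeq2 comparison of the 7 knockdown libraries, both hairpins together, with the 4 control libraries. Between 10800000 and 41200000 reads per library fell on genes, and the 2 deepest libraries were both shCTRL. For 24 of the 74 genes the reads of each library could be worked back from the group means. This takes each mean as a sum of whole reads times a step for each library, with the steps estimated from the same means. Several solutions fitted for NPTX1, MMP1, ADAMTS1, TIMP3, MMP15 and MMP24, and the deposited fold change decided between them. For 33 of the 74 genes no whole reads fitted, for a reason that is not known. Libraries rebuilt in this way are lettered a to d by depth within a group, deepest first; the letters are not the replicate numbers of the labels. NPTX1 itself, rebuilt in the same way, stood at 81.4, 115, 89.9 and 124.95 normalized counts in the shCTRL libraries a to d. It stood at 72.6, 37.2 and 29.6 in shNPTX1_3 and at 46.6, 32.4, 38.6 and 36.0 in shNPTX1_4. All 7 knockdown libraries lay below all 4 controls (two-sided exact permutation p = 0.00606, the smallest this design can give), and shNPTX1_3 library a kept the highest level among them.

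Of the 74 genes, 60 had an adjusted p, 12 had reads but none, and MMP27 and ADAM18 had no read in any library. DESeq2's adjusted p fell under 0.05 for 16 of the 60 (authors' deposited table), with 5 higher and 11 lower in the knockdown, or 8.33% and 18.3% of those tested. Over all genes tested the shares in that table were 15.8% higher and 11.5% lower. In either direction the share was 26.7% of these genes against 27.3% of all genes, so the families were not called more often than the rest of the transcriptome. Their median log2 fold change in the authors' deposited table was -0.18, beside -0.01 over all genes tested. By class, 2 MMPs rose and 3 fell of 18 tested, 1 ADAM rose and 4 fell of 18, and 1 ADAMTS rose and 2 fell of 17. Of the 4 ADAMTSLs tested 1 fell, and of the 3 TIMPs tested 1 rose and 1 fell. In bulk RNA, fewer cells of a type and less RNA per cell cannot be told apart.

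**Figure D1:**
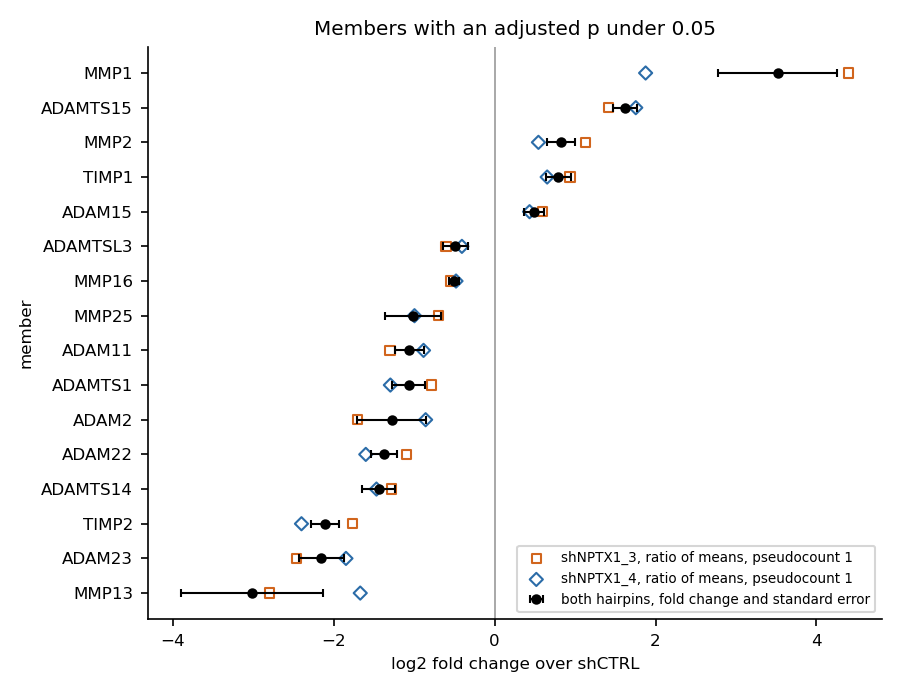
Log2 fold change over shCTRL (horizontal axis) of the 16 genes that pass at an adjusted p of 0.05 (authors' deposited table). Black points with bars are the deposited fold changes of both hairpins together with 1 standard error; open symbols are the log2 ratios of each hairpin's group mean to the control mean with a pseudocount of 1, which share the control libraries. The genes to the right of 0 number 5, with MMP1 farthest at 3.52, and those to the left 11, with MMP13 at -3.01.

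The TIMPs, the inhibitors, moved in opposite directions. TIMP2 had the smallest adjusted p of all 74 genes: its mean fell from 1414 normalized counts in shCTRL to 416 in shNPTX1_3 and 267 in shNPTX1_4. The authors' deposited table lists a log2 fold change of -2.10 (standard error 0.17, DESeq2 adjusted p = 2.29e-31), which left 23.3% of the control level. TIMP1 rose from 171 to 329 and 270 normalized counts; the same authors' deposited table gives a log2 fold change of 0.79 (standard error 0.16, DESeq2 adjusted p = 8.36e-06). TIMP3, which stays bound to the matrix, had 44.1, 46.5, 49.4 and 34.5 normalized counts in shCTRL libraries a to d, 25.9, 30.7 and 31.4 in shNPTX1_3 and 22.9, 25.5, 46.5 and 41.9 in shNPTX1_4. All 3 shNPTX1_3 libraries lay below the controls, whereas shNPTX1_4 overlapped them, and TIMP3 did not pass (authors' deposited table: DESeq2 adjusted p = 0.130). TIMP4 was close to absent, with 7 reads over the shCTRL libraries, 0 in shNPTX1_3 (a count of 0 allows up to 1.27 normalized counts) and 4 in shNPTX1_4.

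Per kilobase of transcript (median length of the coding transcripts in GENCODE 29), the level of TIMP2 was 2.17 times that of TIMP1 in shCTRL. In shNPTX1_3 the order had turned and TIMP1 was 3.02 times TIMP2, and in shNPTX1_4 3.85 times; with the longest transcript as the length these ratios were 2.48, 2.64 and 3.37. TIMP2 made up 67.2% of the summed TIMP level per kilobase in shCTRL, 24.6% in shNPTX1_3 and 20.2% in shNPTX1_4. The sum itself went from 618 normalized counts per kilobase to 497 and 389. These ratios of group means carry no spread between libraries and were not tested as ratios. CEP295NL, annotated inside TIMP2 on the same strand, also fell in the authors' deposited table (log2 fold change -2.47, DESeq2 adjusted p = 9.03e-19), from 90.7 to 17.1 and 16.1 normalized counts. TIMP1, TIMP3 and TIMP4 lie on the strand opposite SYN1, SYN3 and SYN2; SYN1, opposite TIMP1, had 9.51, 4.45 and 9.02 normalized counts in the 3 groups. How reads were shared between overlapping genes was not stated by the authors, and this applies also to ADAM15 with DCST1 and ADAM17 with IAH1.

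**Figure D2:**
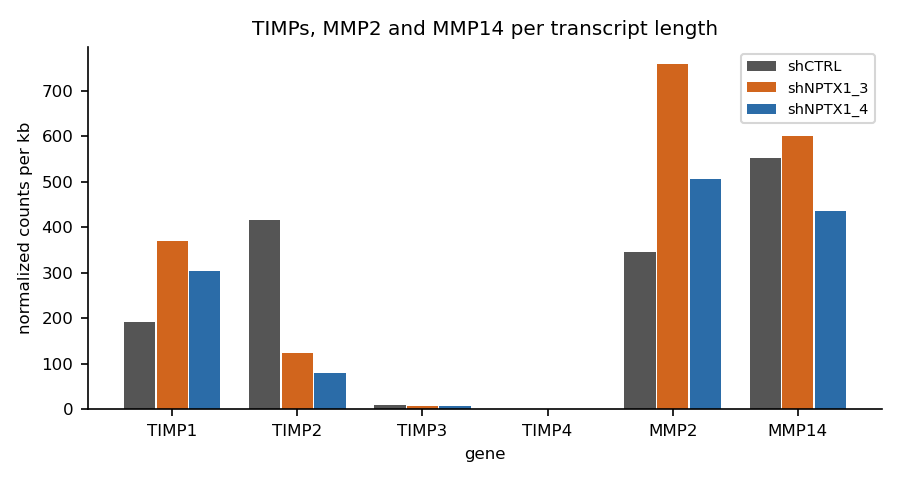
Normalized counts per kilobase of transcript (vertical axis, from 0) of the 4 TIMPs, MMP2 and MMP14; each bar is the authors' group mean divided by the median coding transcript length, with no error since the means carry none. TIMP2 is the highest TIMP in shCTRL and lies below TIMP1 in both knockdown groups, while MMP2 is higher in both.

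Among the MMPs, the collagenase MMP1 had the largest rise. It had 26.4, 33.4, 24.0 and 43.1 normalized counts in shCTRL libraries a to d, 324, 1331 and 414 in shNPTX1_3 and 108, 119, 138 and 112 in shNPTX1_4. All 7 knockdown libraries lay above every control (two-sided exact permutation p = 0.00606), and the 3 shNPTX1_3 libraries lay above the 4 shNPTX1_4 libraries (exact permutation p = 0.0571, the smallest that 3 against 4 allows). The log2 fold change in the authors' deposited table was 3.52 (standard error 0.74, DESeq2 adjusted p = 3.49e-05), or 11.5-fold. Its size rested in part on shNPTX1_3 library b: without that library the refitted value was 2.67, or 6.39-fold, and over all single libraries left out it ran from 2.67 to 3.70. WTAPP1, a pseudogene on the opposite strand of MMP1, MMP10 and MMP3, fell in the authors' deposited table (log2 fold change -1.18, DESeq2 adjusted p = 0.0133), and whether reads were counted by strand was not stated by the authors.

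MMP13, also a collagenase, went the other way on few reads. It had 14, 16, 4 and 3 reads in shCTRL libraries a to d, 0 in each shNPTX1_3 library and 2, 1, 1 and 1 in shNPTX1_4. On the normalized scale every knockdown library lay below every control (exact permutation p = 0.00606), and the authors' deposited table gives a log2 fold change of -3.01 (standard error 0.88, DESeq2 adjusted p = 0.00462). Over the 37 control reads and 5 knockdown reads the size of the fall is loosely fixed, and leaving out single libraries moved it between -3.39 and -2.74. The third collagenase, MMP8, had a mean of at most 0.539 normalized counts in any group.

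The gelatinase MMP2 rose from 987 normalized counts in shCTRL to 2162 in shNPTX1_3 and 1441 in shNPTX1_4. This rise passed the test (authors' deposited table: log2 fold change 0.83, standard error 0.18, DESeq2 adjusted p = 5.59e-05). Per kilobase, MMP2 was 0.832 times TIMP2 in shCTRL, 6.20 times in shNPTX1_3 and 6.43 times in shNPTX1_4. MMP14, the membrane enzyme that activates pro-MMP2, had means of 2060, 2243 and 1626 in the same order and was not called (authors' deposited table: DESeq2 adjusted p = 0.540).

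Membrane-type MMPs that fell were MMP16 and MMP25. MMP16 went from 1925 to 1318 and 1382 normalized counts, a small shift with a narrow error (authors' deposited table: log2 fold change -0.51, standard error 0.06, DESeq2 adjusted p = 1.23e-13). MMP25, which is anchored by a lipid tail and best known from leukocytes, went from 31.7 to 19.3 and 15.4 normalized counts (authors' deposited table: log2 fold change -1.01, standard error 0.35, DESeq2 adjusted p = 0.0188). Of the leukocyte marker list, 7 genes were tested and none was called (authors' deposited table: median log2 fold change -0.33). Its summed level was 979 normalized counts in the controls, 1079 with shNPTX1_3 and 846 with shNPTX1_4, and CD68 made up most of it (697, 794 and 635). PTPRC stood at 50.2, 43.2 and 41.7, CSF1R at 11.6, 5.60 and 8.58 and MARCO at 0. The part of leukocytes in the MMP25 values was not tested.

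A further set of proteases separated the hairpins from each other. MMP9, the other gelatinase, had 25.5, 45.0, 20.2 and 38.8 normalized counts in shCTRL libraries a to d, 106, 98.6 and 148 in shNPTX1_3 and 15.5, 16.7, 21.6 and 18.6 in shNPTX1_4. The shNPTX1_3 libraries lay above all others, while the highest shNPTX1_4 library overlapped the lowest control. The membrane-type MMP24 had 76.9, 75.9, 62.0 and 64.6 normalized counts in shCTRL, 104, 128 and 122 in shNPTX1_3 and 54.0, 43.2, 47.7 and 51.2 in shNPTX1_4. For MMP24 the groups did not overlap, with shNPTX1_3 above the controls and shNPTX1_4 below them. MMP9 and MMP24 were picked for the difference between the hairpins, so their values are given as a description. MMP15, another membrane-type enzyme, had 119, 132, 137 and 132 normalized counts in shCTRL, 197, 202 and 238 in shNPTX1_3 and 103, 162, 153 and 133 in shNPTX1_4, so only shNPTX1_3 stood clear of the controls.

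With the hairpins pooled, none of these 3 was called (authors' deposited table: DESeq2 adjusted p = 0.364 for MMP9, 0.763 for MMP24 and 0.140 for MMP15). The exact tests covered 12 rebuilt genes in 4 comparisons each, 48 in all, and no test between the hairpins could go below 0.0571. As a background, 1981 genes of low level could be rebuilt (means of at most 35 normalized counts in shCTRL and shNPTX1_4, with a higher limit for shNPTX1_3), and 7 of the protease and TIMP genes were among them. All shNPTX1_3 libraries lay above all shNPTX1_4 libraries in 6.61% of the 1981 and below in 6.71%. Of the 7, MMP9 and MMP10 lay above and MMP13 below. MMP13 had 0 reads in shNPTX1_3, which allows up to 1.27 normalized counts, and a mean of 1.19 in shNPTX1_4. Its place below shNPTX1_4 is therefore not resolved, and MMP10 rested on 1 to 10 reads a library. Against shCTRL, shNPTX1_3 lay wholly above in 7.93% (MMP9 of the 7) and wholly below in 12.5% (MMP13). For shNPTX1_4 the shares were 3.94% above (none of the 7) and 7.42% below (MMP13 and MMP10). All 7 knockdown libraries lay above all controls in 1.82% (none of the 7) and below in 2.73% (MMP13). MMP1, ADAMTS1, MMP15, MMP24 and TIMP3, and NPTX1 itself, had means above these limits. The shares do not cover them, and none was worked out at their level.

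Of the 36 genes that reached 2 CPM (counts per 1000000), 5 were at least 2-fold higher in shNPTX1_3 than in shNPTX1_4 and 0 were lower; over all 14131 genes at that level the shares were 1.82% and 0.863%. Beside MMP9 (6.20-fold), MMP1 (5.74-fold) and MMP24 (2.37-fold) these were ADAMTS4 (4.40-fold) and ADAMTS16 (2.18-fold), all from group means with a pseudocount of 1. Without shNPTX1_3 library b the ratio of MMP1 was 3.08-fold; for MMP9 and MMP24 leaving out single libraries kept it between 5.41 and 6.70 and between 2.27 and 2.52. Against shCTRL, shNPTX1_3 had 4 genes at least 2-fold higher (MMP1, MMP9, MMP2 and ADAMTS15) and 4 lower (TIMP2, ADAM11, ADAM22 and ADAMTS14), with backgrounds of 2.95% and 1.51%. For shNPTX1_4 the counts were 2 higher (MMP1 and ADAMTS15) and 6 lower (TIMP2, ADAM22, ADAMTS1, ADAMTS14, ADAMTS16 and ADAMTS4), with backgrounds of 1.47% and 1.24%. Both comparisons use the same control libraries, and these ratios were not tested.

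**Figure D3:**
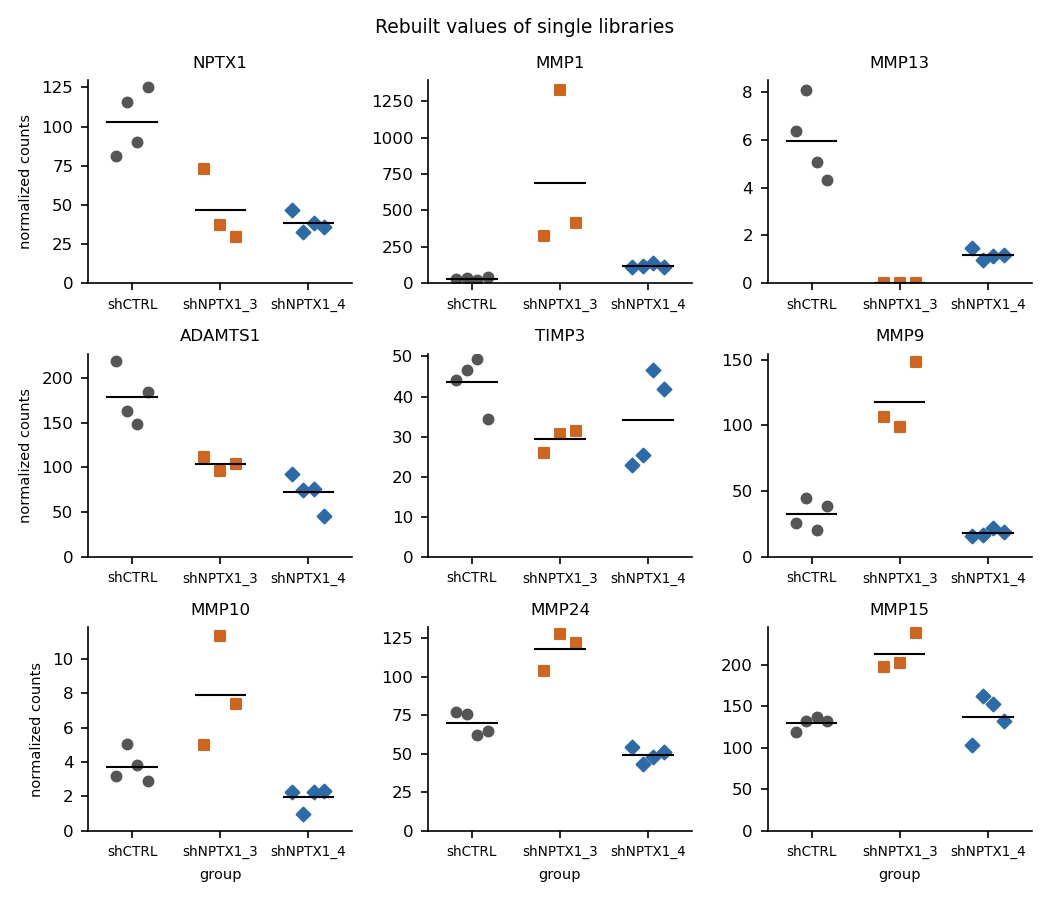
Rebuilt normalized counts of single libraries (vertical axis, linear from 0, a scale of its own in each panel) for NPTX1 and 8 of the protease and TIMP genes; each point is 1 library and each bar the group mean. MMP1 is high in all shNPTX1_3 libraries, with library b at 1331, and MMP9 and MMP24 are high in shNPTX1_3 alone.

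MMP1 and MMP13 belong to a run of 9 MMP genes on chromosome 11, in the order MMP7, MMP20, MMP27, MMP8, MMP10, MMP1, MMP3, MMP12 and MMP13 with no other coding gene between them in the RefSeq annotation. Within this run MMP1 rose, MMP13 fell and no other gene passed (authors' deposited table: DESeq2). The stromelysin MMP3 and the elastase MMP12, which lie between MMP1 and MMP13, had 16 and 17 reads over the 4 control libraries. MMP3 had 1 read in shNPTX1_3 and 3 in shNPTX1_4, MMP12 had 1 and 1, and neither received an adjusted p. MMP10, the gene next to MMP1 on the other side, had 3.18, 5.06, 3.80 and 2.87 normalized counts in shCTRL libraries a to d, 5.01, 11.3 and 7.39 in shNPTX1_3 and 2.22, 0.982, 2.27 and 2.33 in shNPTX1_4. These rested on 1 to 10 reads a library. MMP7, the matrilysin, was at 13.2, 16.2 and 13.6 normalized counts in the 3 groups (authors' deposited table: DESeq2 adjusted p = 0.793).

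**Figure D4:**
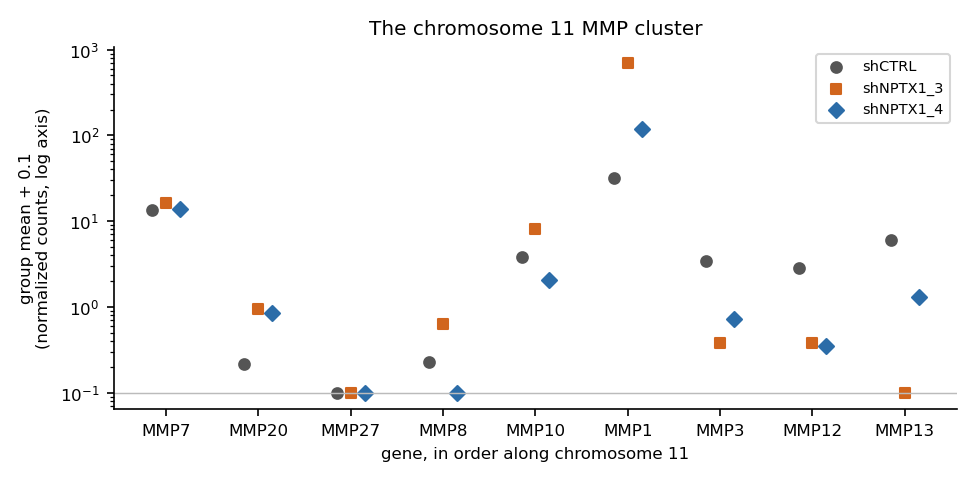
Group means plus 0.1 (vertical axis, normalized counts, log scale) of the 9 MMP genes in their order along chromosome 11; the line marks 0 reads. MMP1 is higher and MMP13 lower in both knockdown groups, and MMP27 has no reads.

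Promoter sequences, taken as 250 bases before the start of the gene, are shown for MMP10 from the chromosome 11 run and MMP24 from outside it, both higher in every shNPTX1_3 than in every shNPTX1_4 library, and for TIMP1, which rose with the knockdown. The RefSeq promoter table (GRCh38.p14) matched 44 of the 74 genes. They are printed 5′ to 3′ on the gene's strand, and capitals mark the TATA-box letters TATAAA, searched on both strands, where present.
MMP10, chr11:102780629-102780878, minus strand: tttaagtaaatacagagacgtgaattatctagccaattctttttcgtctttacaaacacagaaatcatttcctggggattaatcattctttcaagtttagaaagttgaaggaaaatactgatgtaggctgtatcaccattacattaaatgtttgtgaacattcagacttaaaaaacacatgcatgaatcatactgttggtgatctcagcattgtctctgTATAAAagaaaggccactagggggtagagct
MMP24, chr20:35226440-35226689, plus strand: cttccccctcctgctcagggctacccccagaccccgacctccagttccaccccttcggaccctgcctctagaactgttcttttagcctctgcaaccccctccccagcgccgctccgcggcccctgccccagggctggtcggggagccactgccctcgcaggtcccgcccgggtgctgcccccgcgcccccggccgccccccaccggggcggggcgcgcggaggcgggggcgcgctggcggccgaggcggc
TIMP1, chrX:47582186-47582435, plus strand: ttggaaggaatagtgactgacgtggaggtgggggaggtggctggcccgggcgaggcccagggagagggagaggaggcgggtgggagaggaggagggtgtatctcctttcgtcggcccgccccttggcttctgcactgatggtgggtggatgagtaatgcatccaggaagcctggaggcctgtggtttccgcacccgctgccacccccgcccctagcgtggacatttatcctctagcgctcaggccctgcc

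The 3 promoters differ in base composition, with 34.4% G and C in MMP10, 77.6% in MMP24 and 64.8% in TIMP1; the median over all 27305 promoters of the table was 58%. The TATA-box letters stood 31 bases before the start in MMP10 and were not in the MMP24 or TIMP1 window. They were found in 4 of the 5 promoters of the chromosome 11 run that the table holds, in 8 of the 44 matched genes and in 11.1% of all promoters. In the run they also stood 30 bases before the start in MMP7, 72 in MMP20 and 110 in MMP8. The share over all promoters was not matched for base composition. The AP-1 motif TGAGTCA or TGACTCA, searched on both strands, was present in 1 of the 44 (MMP7, 67 bases before the start) and in 4.16% of all promoters. Genes without a matched promoter, among them MMP1, MMP2, MMP3, MMP9, MMP12, MMP13 and TIMP2, were not searched for either motif. Absence of a motif says only that these letters are not in this window.

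Among the ADAMs, the 3 catalytically inactive LGI-binding members were all lower. ADAM22 fell from 602 normalized counts in shCTRL to 282 in shNPTX1_3 and 198 in shNPTX1_4 (authors' deposited table: log2 fold change -1.37, standard error 0.16, DESeq2 adjusted p = 8.51e-16). ADAM23 fell from 55.4 to 9.23 and 14.7 normalized counts (authors' deposited table: log2 fold change -2.15, standard error 0.28, DESeq2 adjusted p = 1.91e-12), the largest fall among the ADAMs called. ADAM11 fell from 124 to 49.97 and 67.0 normalized counts (authors' deposited table: log2 fold change -1.06, standard error 0.18, DESeq2 adjusted p = 9.9e-08). The grouping of these 3 was made after their values were seen. ADAM2, a sperm surface protein, also fell, from 18.8 to 5.06 and 9.93 normalized counts (authors' deposited table: log2 fold change -1.28, standard error 0.42, DESeq2 adjusted p = 0.0138).

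The main sheddases did not pass the test. ADAM9 had 5943 normalized counts in the controls, 6908 with shNPTX1_3 and 6913 with shNPTX1_4 and missed the threshold (authors' deposited table: DESeq2 adjusted p = 0.0717). ADAM10 had 3562, 3375 and 3433 normalized counts, and the fold change had a narrow error (authors' deposited table: log2 fold change -0.06, standard error 0.05, DESeq2 adjusted p = 0.374). ADAM17 had 2896, 3714 and 2841 normalized counts (authors' deposited table: DESeq2 adjusted p = 0.359). ADAM15, whose product carries an integrin-binding motif, was the ADAM that rose, from 244 to 369 and 331 normalized counts (authors' deposited table: log2 fold change 0.49, standard error 0.12, DESeq2 adjusted p = 5.98e-04).

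The proteoglycan-cutting ADAMTSs split. ADAMTS15 rose from 233 normalized counts in shCTRL to 621 in shNPTX1_3 and 788 in shNPTX1_4, and the authors' deposited table gives a log2 fold change of 1.62 (standard error 0.15, DESeq2 adjusted p = 2.19e-25). ADAMTS1, which cuts versican and aggrecan, had 218, 163, 148 and 184 normalized counts in shCTRL libraries a to d, 111, 95.4 and 103 in shNPTX1_3 and 92.5, 74.6, 76.0 and 45.3 in shNPTX1_4. The 3 groups did not overlap: every knockdown library lay below every control (exact permutation p = 0.00606). This fall passed the test as well (authors' deposited table: log2 fold change -1.07, standard error 0.20, DESeq2 adjusted p = 3.23e-06), and leaving out single libraries kept the fold change between -1.15 and -0.95. ADAMTS4, an aggrecanase, had a control mean of 856 normalized counts, with 1446.5 for shNPTX1_3 and 328 for shNPTX1_4, on either side of the control mean (authors' deposited table: DESeq2 adjusted p = 0.930). ADAMTS5, the other main aggrecanase, had 18 reads over the controls, 0 in shNPTX1_3 and 5 in shNPTX1_4 and received no adjusted p.

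Of the procollagen-trimming enzymes, ADAMTS14 fell from 69.5 to 28.1 and 24.5 normalized counts (authors' deposited table: log2 fold change -1.44, standard error 0.21, DESeq2 adjusted p = 2.14e-10). ADAMTS2 (65.7, 47.0 and 56.5 normalized counts) and ADAMTS3 (341, 249 and 292) did not pass (authors' deposited table: DESeq2 adjusted p = 0.256 and 0.198). ADAMTS16 had 168 and 174 normalized counts in shCTRL and shNPTX1_3 and 79.5 in shNPTX1_4 (authors' deposited table: DESeq2 adjusted p = 0.212). Among the ADAMTS-like proteins, ADAMTSL3 fell from 3448 to 2271 and 2603 normalized counts (authors' deposited table: log2 fold change -0.49, standard error 0.16, DESeq2 adjusted p = 0.0113). ADAMTSL4, which binds fibrillin, had 295, 194 and 248 normalized counts and did not pass (authors' deposited table: DESeq2 adjusted p = 0.195).

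**Figure D5:**
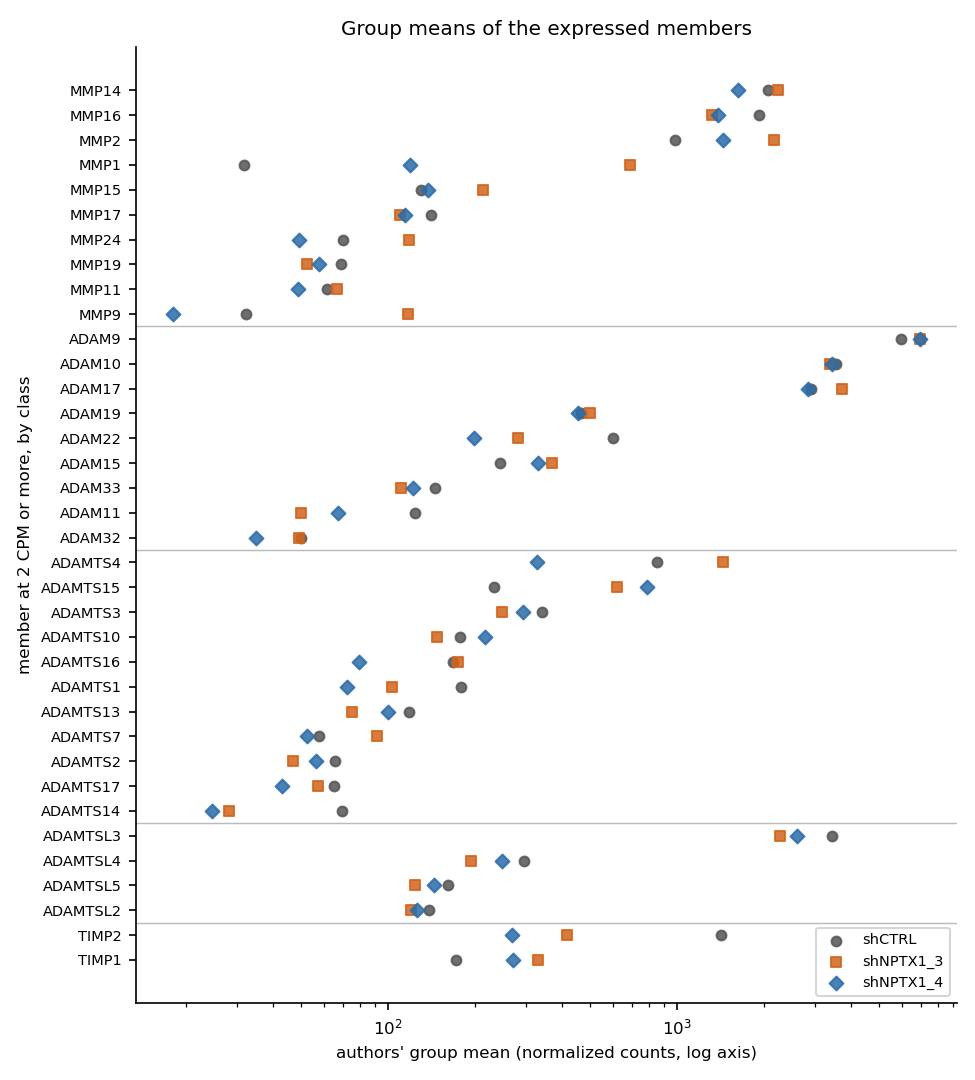
Group means (horizontal axis, normalized counts, log scale) of the 36 genes that reached 2 CPM, by class and within a class by level. Each symbol is the authors' mean of 1 group, without an error. The largest gaps between control and knockdown are those of MMP1, TIMP2 and ADAMTS15, and MMP9, ADAMTS4 and MMP24 have the control between the 2 hairpins.

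Genes that activate, inhibit, regulate or are cut by these proteases were taken from 7 lists. Of 120 tested, 23 rose and 12 fell (authors' deposited table: DESeq2), or 29.2%, close to the 27.3% of all genes. With the groups scaled to the same total, 22 rose and 24 fell, so the excess of rises depends on the scaling. In the plasmin system, which activates pro-MMPs, 3 of 13 rose and 2 fell: the activator PLAT was among those that rose (authors' deposited table, log2 fold change 0.74), and the protease inhibitor SERPINE2 fell (-1.05). Of 13 other inhibitors and inducers 5 rose and 1 fell, with TFPI2, a matrix-bound serine protease inhibitor, at 598, 1919 and 1390 normalized counts (authors' deposited table: log2 fold change 1.44, DESeq2 adjusted p = 7.62e-21). Of 9 other metzincins 1 fell, PAPPA, which cuts IGF-binding proteins (authors' deposited table: log2 fold change -1.01). Among 12 partners of ADAM10 and ADAM17, the ADAM10-binding tetraspanins TSPAN5 and TSPAN15 rose in the authors' deposited table (log2 fold changes 0.69 and 0.57).

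Of 27 proteins known to be shed by ADAMs, 6 rose and 4 fell. The EGF-family ligands AREG, EREG and NRG1 rose by log2 2.03, 1.38 and 1.24 and the surface proteoglycan SDC4 by 1.30 (authors' deposited table), whereas TGFA, another ligand of that family, had -1.42, and the receptor NOTCH3 -1.35. Of 28 matrix substrates 6 rose and 2 fell. FN1, which encodes fibronectin, went from 274 to 1113 and 934 normalized counts (authors' deposited table: log2 fold change 1.88, DESeq2 adjusted p = 1.02e-32). VCAN, the ADAMTS substrate versican, went from 491 to 89.0 and 103 normalized counts (authors' deposited table: log2 fold change -2.34, DESeq2 adjusted p = 3.6e-98). The last list held 19 transcription factors that act on MMP promoters: AP-1 and ETS factors with RUNX1, RUNX2, NFKB1, RELA, STAT3 and EGR1. Of these 19, ETS2 rose and FOSB and JUND fell in the authors' deposited table (log2 fold changes 0.85, -0.52 and -0.32).

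Stromal cells also make MMP2, TIMP1 and matrix proteins, and host liver cells could be present in the tumours. In the fibroblast and stellate list 2 of 8 genes rose, and the summed level was 1742 normalized counts in the controls, 6525 with shNPTX1_3 and 3466 with shNPTX1_4, most of it COL3A1 in the knockdown groups. LUM, the other gene that rose, had 8.09, 24.1 and 13.3 normalized counts. Of the rest, COL1A2 went the other way, from 74.3 to 17.8 and 17.5 (authors' deposited table: log2 fold change -2.10, DESeq2 adjusted p = 0.0559). RGS5 had 65.2, 91.4 and 83.7, COL1A1 725, 701 and 1019 and ACTA2 128, 163 and 75.6. PDGFRB had 7.58, 6.32 and 6.44 and DCN 2.41, 4.27 and 3.37, and none of the rest was called. Of the hepatocyte list 2 of 4 tested rose, APOA1 (9.99, 49.3 and 21.9 normalized counts) and TF (12.3, 35.1 and 20.6), with a list sum of 76.3, 155 and 91.2. ALB and TTR stood below 1 normalized count in every group. None of 5 endothelial genes was called (sum 431, 467 and 416). In the carcinoma epithelium list KRT19, KRT18, KRT7 and KRT8 rose and KRT17 fell of 8, with a sum of 76875, 125515 and 97403 normalized counts. Most of that sum was VIM, a mesenchymal marker (60617, 68671.5 and 68305). VIM, EPCAM (462, 438 and 548) and CDH1 (247, 620 and 210) were not called. The part of these lists in the protease and TIMP values was not tested, and how host reads were handled was not stated by the authors.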

How the data were processed

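The submitters' processing notes name STAR 2.7.6a, featureCounts 2.0.0, MultiQC 1.9, DESeq2 1.24 and the builds hg19 and mm39; their roles, annotation and strand setting were not stated. Libraries came from the TruSeq RNA kit version 2, per the labels' protocols. The authors deposited 1 table with normalized counts (a signal per gene, as group means), the log2 fold change, its standard error, a Wald score and p-values, raw and adjusted, per the file headers. Adjusted p-values were used as deposited, over all 18426 genes that have one; 107 rows without a usable gene name were left out. Members and lists were chosen with earlier results of these data known.

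Ratios of group means used a pseudocount of 1 and a mean of at least 2 CPM. Reads per library were rebuilt, a step chosen after seeing the data, by solving each mean as whole reads over the steps of its libraries; where several solutions remained, the one kept had to give the deposited fold change within 2e-06 on refitting, with the next 100 times farther. Of 3725 low genes 1850 had 1 solution, and for 1782 of these (96.3%) the refitted log2 fold change lay within 1e-05 of the deposited one. Some genes of few reads described above were not that close. The difference was 0.00775 for MMP13, 0.0113 for ADAMTS5, 0.0457 for MMP3, 0.0458 for TIMP4 and 0.289 for MMP12. NPTX1, MMP1, ADAMTS1, TIMP3, MMP15, MMP24 and ADAM20 had several solutions and were chosen by the fold change. The share of 96.3% does not cover these genes, and their fold change is no separate check. In a simulation of 200 genes, 183 were rebuilt and 183 of these were right. This figure holds for the simulation only. Whether the rebuilt reads of the deposited genes match the true reads of each library was not tested. Of the 74 genes, 33 were not whole multiples and 17 were too high to solve. Of the 3725 low genes 1740 were not whole multiples either, and the reason is not known. Single libraries were left out in refits with the dispersion held fixed.

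Genes named are those with an adjusted p under 0.05, all TIMPs, the 2 most abundant genes of each class, those 2-fold apart between hairpins, and, of the lists, some of the up to 4 called genes of largest change at 2 CPM or more; NRG1, TGFA, the single marker genes and other genes outside this rule were chosen after their values were seen. Python 3.11.15, numpy 2.4.6, pandas 2.3.3 and scipy 1.17.1 were used.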

Additional observations from a re-analysis of the deposited data

Results flagged for a closer look

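For 3 of the 12 rebuilt genes tested, every shNPTX1_3 library lay above the control mean and every shNPTX1_4 library below it. The share of all rebuilt genes with this pattern was not worked out, so the count has no background. The log2 ratio of the hairpins' means, here without a pseudocount, was 2.70 for MMP9, 1.26 for MMP24 and 2.02 for MMP10 (with a pseudocount of 1, 2.63, 1.25 and 1.59). Since the genes were picked for this separation, no test of the difference applies. MMP10 rests on 1 to 10 reads a library. One library stood apart from the others of its group: MMP10 had 0.982 normalized counts, from 1 read, in shNPTX1_4 library b, beside 2.22 to 2.33 in the other 3. Of 24 groups of 4 libraries looked at, chance alone would set apart about 1 in 20.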

How the results depend on the processing

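The 16 called genes kept their direction and their call when the groups were scaled to the same total of normalized counts (a shift of 0.07 on the log2 scale) and when p-values were adjusted without a filter on low values. Genes called lower numbered 7 in place of 11 at 2 CPM or more, where fewer genes enter, and pathway genes called lower 24 in place of 12 under the equal totals; the cause of the latter was not tested. With no minimum level, genes at least 2-fold apart became 10 in place of 4 lower in shNPTX1_3, 4 in place of 2 higher and 10 in place of 6 lower in shNPTX1_4, and 8 in place of 5 higher and 1 in place of 0 lower in shNPTX1_3 against shNPTX1_4. Leaving out 1 library at a time was possible for rebuilt genes only, and moved the log2 fold change of MMP1 between 2.67 and 3.70, of MMP13 between -3.39 and -2.74 and of ADAMTS1 between -1.15 and -0.95. No paired analysis was possible because the table's columns hold group means and the rebuilt libraries carry no replicate numbers. For TIMP2, ADAM22, ADAMTS15, MMP2 and the other genes that could not be rebuilt, the spread between libraries is known only through the deposited standard error.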
